A study of Mus musculus with 11 samples.

Results

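The TNF ligands, their receptors and the Traf adaptors were followed in mouse T cell acute lymphoblastic leukaemia (T-ALL) with and without Utx. Rows of the deposited table were taken by symbol: the numbered Tnfsf, Tnfrsf and Traf genes, with Tnf, Lta, Ltb, Ltbr, Fas, Fasl, Cd27, Cd40, Cd40lg and Cd70. This gave 48 of the 37224 rows, for 47 symbols, since Tnfrsf22 has 2 rows: 16 ligands, 25 receptor rows and 7 adaptors. The 5 knockout samples came from Utx-/Y donors and the 6 wild-type samples from Utx+/+ or Utx+/Y donors, all of C57/BL6 background. In both groups cKit progenitors received a retrovirus with the activated form of Notch1 (Notch1-IC) and were transplanted into mice, whose bone marrow or spleen gave the leukaemia cells, in part as sorted populations. The marrow gave 2 samples of each genotype, and the spleen 3 knockout and 4 wild-type samples; repeat runs are among them. The sources used here give neither ages nor how Utx was deleted. The authors pooled the counts of each genotype, so that every gene has 1 value per genotype and no spread between tumours. None of the differences below could be checked across tumours, and a single tumour can set a pooled value. The first column was read as the knockout pool from the order of genotypes in the title of the table.

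TNF ligands are mostly trimers on the cell surface, from which some are shed. They bind receptors that fall into classes. Receptors with a death domain recruit Fadd or Tradd and can start apoptosis. Receptors without a death domain bind Traf adaptors, which lead to NF-kappaB and MAP kinases and often promote survival, while decoy receptors bind a ligand and pass on no death signal. In T cells the family is known for the death of activated cells through Fas and for costimulation through receptors such as Cd27 and Tnfrsf4. Utx, listed as Kdm6a, removes repressive methyl marks from histone H3.

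The knockout pool held 106445530 counts and the wild-type pool 108015222. Kdm6a was at 10.5 CPM (read counts scaled to a common pool size) in the knockout pool and 58.3 CPM in the wild-type pool. Sex-linked genes differed as well: Uty, on the Y chromosome, was at 15.6 CPM in the knockout and 1.82 CPM in the wild-type pool, and Xist, the transcript that silences an X chromosome, at 0.705 against 203 CPM. Genotype and sex of the donors therefore cannot be told apart for the genes below. Markers of T cells and thymocytes summed to 4300 CPM in the knockout and 5067 CPM in the wild-type pool; Cd3e was at a log2 ratio of -0.03 and Thy1, the 1 called of 14, at -1.06. Macrophage and monocyte markers were higher in the knockout pool, with 376 against 138 CPM in sum and 11 of 13 called higher. Erythroid markers summed to 24903 against 12349 CPM (4 of 10 higher) and neutrophil markers to 2500 against 2028 CPM (5 of 11). Plasma cell markers summed to 182 against 84.8 CPM (3 of 5 higher and 1 lower) and megakaryocyte markers to 30.1 against 14.9 CPM (3 of 7). Stromal and endothelial markers summed to 149 against 184 CPM (4 of 9 higher, and Pdgfrb lower at 31.7 against 88.2 CPM). Of 7 dendritic cell markers 1 was higher. These shares take only markers with at least 100 counts over both pools. Among all such genes 11.2% were higher and 5.36% lower. In such bulk samples, fewer cells of a type and less RNA per cell cannot be told apart.

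**Figure D1:**
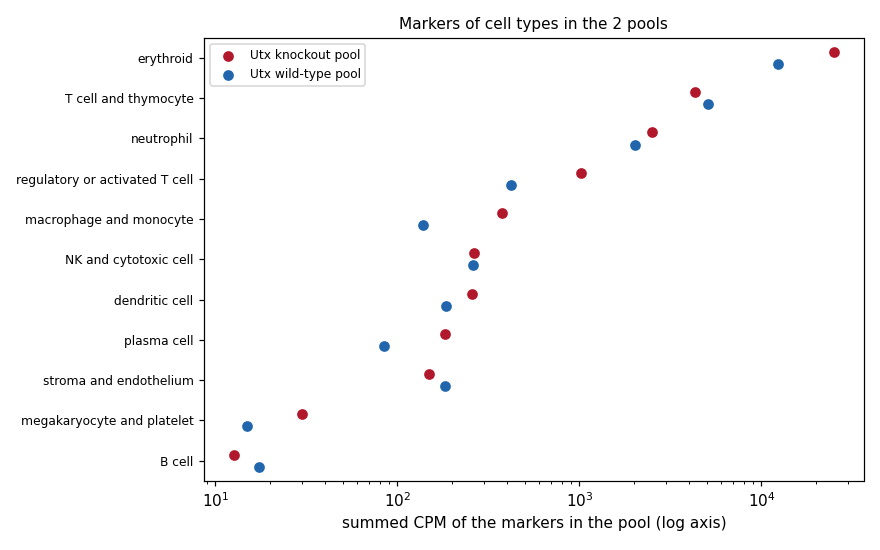
Summed CPM of the markers of each cell type (log axis) in the Utx knockout pool (red) and the Utx wild-type pool (blue), with 1 pooled value each and hence no error bars. Macrophage and monocyte markers sum to 376 CPM in the knockout pool against 138 CPM in the wild-type pool, while B cell markers sum to 12.7 against 17.3 CPM.

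The call used here needs at least 100 reads over both pools, a 2-fold difference in CPM and an exact 95% interval of the log2 ratio that leaves out 0; "higher" and "lower" refer to the knockout. The interval covers counting error only. Of the 48 rows, 38 reached 100 counts: 10 were called higher, 4 lower and 24 neither. The background was 11.2% higher and 5.36% lower, among all 13833 genes that reached 100. The median log2 ratio of the 38 was 0.23 (quartiles -0.46 and 1.05), beside -0.07 (quartiles -0.38 and 0.37) for all genes with enough counts. With at least 500 counts the median of the family was 0.08, and with at least 20 it was 0.37. The family genes were less deeply counted, with a median combined count of 1671.5 beside 3466; among all genes with at least 500 counts the background was 7.56% higher and 3.35% lower. The authors' deposited table gave a fold change for 46 of the rows. At a q under 0.05, without a fold or count minimum, it held 22 of them as higher and 15 as lower. Among all 20904 of its rows with a q-value, 30.4% were higher and 37.4% lower. That test compares these pools of reads.

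**Figure D2:**
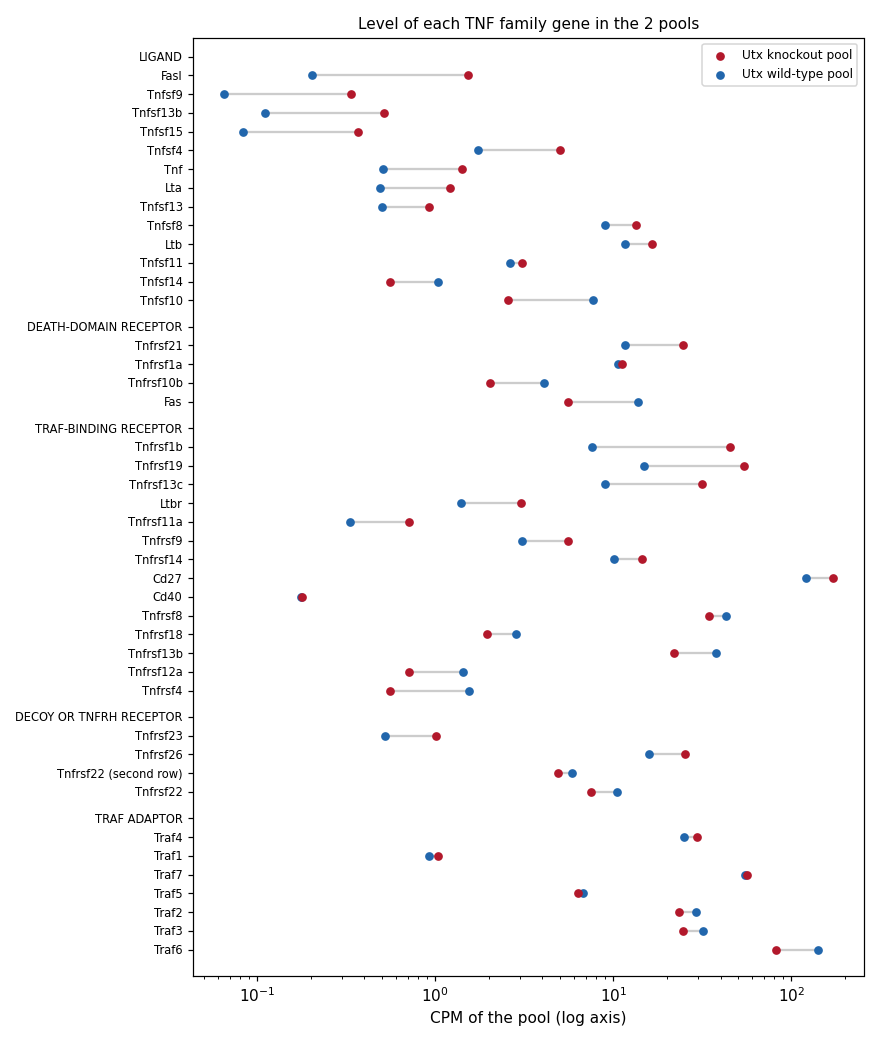
CPM (log axis) of each family gene with at least 20 combined counts, in the Utx knockout pool (red) and the Utx wild-type pool (blue), grouped by role; each point is 1 pooled value. Cd27 is at 171 CPM in the knockout and 121 CPM in the wild-type pool, and the longest bars among genes with at least 100 counts are those of Fasl and Tnfrsf1b.

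**Figure D3:**
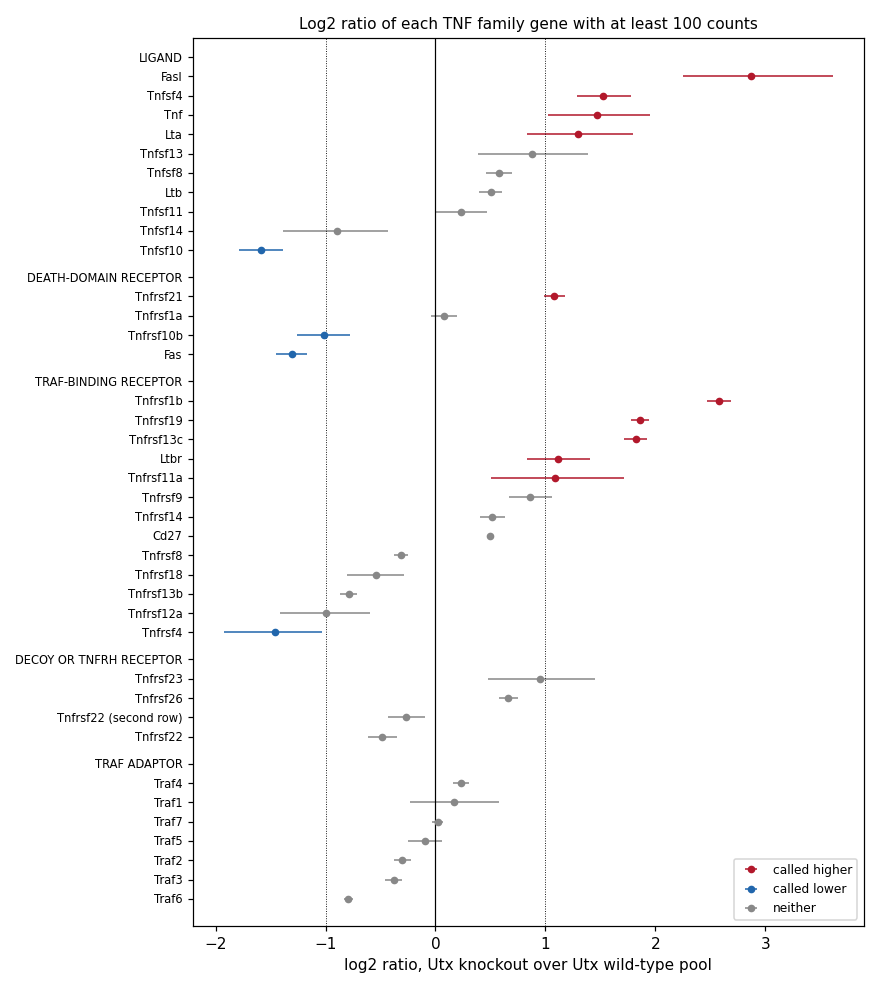
Log2 ratio of the Utx knockout over the Utx wild-type pool for the 38 rows with at least 100 combined counts; bars are exact 95% intervals for counting error, and dotted lines mark a 2-fold difference. Called genes (red higher, blue lower) range from -1.58 for Tnfsf10 to 2.87 for Fasl, and the Traf adaptors all lie inside the dotted lines.

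The bases upstream of 6 genes are shown as examples of the comparisons below: Fasl and Fas as an opposed pair, Tnf and its neighbour Ltb as a called and an uncalled gene, Tnfsf10 as the ligand called lower and Tnfrsf1b as the receptor with the largest ratio among the called rows chosen by symbol. They are RefSeq sequences of GRCm38.p6, 5′ to 3′ in the sense of the gene, and hold no annotated exon. Capitals mark matches to 3 motifs searched on both strands: the NF-kappaB consensus (3 G, 2 free bases, 3 T and 2 C), TGGGAA (Rbpj, the DNA-binding partner of Notch) and the TATA box (TATAAA). No matches overlap here.
Fasl, chr1:161788496-161788695, minus strand: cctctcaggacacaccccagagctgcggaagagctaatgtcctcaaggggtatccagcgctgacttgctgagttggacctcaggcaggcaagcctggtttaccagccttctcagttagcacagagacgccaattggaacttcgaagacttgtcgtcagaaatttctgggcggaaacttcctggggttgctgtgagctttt
Fas, chr19:34290447-34290646, plus strand: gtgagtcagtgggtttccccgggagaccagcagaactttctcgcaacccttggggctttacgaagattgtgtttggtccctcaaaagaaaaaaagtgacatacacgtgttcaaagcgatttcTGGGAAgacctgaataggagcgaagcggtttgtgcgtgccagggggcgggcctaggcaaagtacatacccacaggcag
Tnf, chr17:35202008-35202207, minus strand: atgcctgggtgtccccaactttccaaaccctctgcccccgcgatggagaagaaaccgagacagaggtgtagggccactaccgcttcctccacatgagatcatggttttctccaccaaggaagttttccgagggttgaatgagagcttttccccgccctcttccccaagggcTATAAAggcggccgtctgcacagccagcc
Ltb, chr17:35194257-35194438, plus strand: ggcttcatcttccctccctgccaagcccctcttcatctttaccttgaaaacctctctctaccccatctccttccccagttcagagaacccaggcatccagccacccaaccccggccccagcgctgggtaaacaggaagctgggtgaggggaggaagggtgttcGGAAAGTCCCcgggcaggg
Tnfsf10, chr3:27316828-27317027, plus strand: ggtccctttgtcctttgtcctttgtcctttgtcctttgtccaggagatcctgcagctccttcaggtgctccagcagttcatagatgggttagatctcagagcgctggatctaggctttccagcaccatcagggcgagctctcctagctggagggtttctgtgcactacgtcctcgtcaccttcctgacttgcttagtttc
Tnfrsf1b, chr4:145246871-145247070, minus strand: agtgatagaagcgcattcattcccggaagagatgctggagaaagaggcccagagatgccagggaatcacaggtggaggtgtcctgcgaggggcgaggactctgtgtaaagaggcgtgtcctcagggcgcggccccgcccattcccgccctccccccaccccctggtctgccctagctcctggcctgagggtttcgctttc

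Tnf held a TATA box 29 to 24 bases before its RefSeq start, Ltb an NF-kappaB match 87 to 78 bases before it and Fas an Rbpj match 90 to 85 bases before it. The other 3 stretches held none of these letters. Windows of 250 bases before to 50 after the start were found for 38 of the 47 symbols, as 42 windows. The NF-kappaB motif was in 5 of the 42 (11.9%), beside 1.63% of all 32851 windows: those of Ltb, Tnfrsf25, Tnfrsf9, Traf2 and Traf3. None of these genes was called, and Tnfrsf25 had too few counts for a call. For the Rbpj motif the share was 16.7% beside 25.6%, and for the TATA box 14.3% beside 13.6%. These shares were not tested, and a match is only a description of the letters. Of the 10 genes called higher 9 had windows, and these 10 windows held a median of 13 CpG (7 to 43). For 3 of the 4 genes called lower, those with a window, the median was 6 (6 to 14). For the 21 genes called neither that had windows it was 8.5 (2 to 59), with 7 as the median of all windows.

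Levels of different genes were set side by side per kb of exon. Cd27, a costimulatory receptor of T cells, stood first in both pools, with 73.6 CPM per kb in the knockout and 52.1 in the wild-type pool. It gave 36.6% of all receptor counts in the knockout pool (exact 95% interval 36.2 to 37.1) and 37.1% in the wild-type pool (36.6 to 37.6). Below it the order differed between the pools. In the knockout pool Tnfrsf13c (15.4 CPM per kb), Tnfrsf1b (11.9) and Tnfrsf19 (11.4) came next, and in the wild-type pool Traf6 (18.0), Tnfrsf13b (13.3) and Tnfrsf8 (12.4). Without a spread between tumours, whether neighbours in these orders differ was not tested.

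The ligands summed to 47.4 CPM in the knockout and 35.8 CPM in the wild-type pool. Of the 16 ligand genes 10 had enough counts. Of these 4 were called higher and 1 lower, beside 11.2% and 5.36% of all genes, and 5 neither. Fasl, the ligand that kills cells bearing Fas, had the largest ratio of the 38 rows chosen by symbol with enough counts, on 162 knockout counts against 22 wild-type counts (1.52 against 0.204 CPM). Its log2 ratio was 2.87 (2.25 to 3.62), and 269 of the 13833 genes had a larger one. Tnfsf4, a costimulatory ligand, had 531 knockout counts against 187 wild-type counts, a log2 ratio of 1.52 (1.28 to 1.78). Tnf, the inflammatory cytokine that names the family, had 151 against 55 counts and stood at 1.47 (1.02 to 1.95). Lta, a soluble relative of Tnf that also joins Ltb in a membrane complex, had 129 against 53 counts and stood at 1.30 (0.83 to 1.79). All these ligands were below 5 CPM in both pools, and Fasl, Tnf and Lta were below 1 CPM in the wild-type pool.

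Tnfsf10, or TRAIL, which kills cells through death receptors, was the ligand called lower. It had 273 knockout counts against 832 wild-type counts, or 2.56 against 7.70 CPM. Its log2 ratio was -1.58 (-1.79 to -1.39). The ligands with the most CPM per kb in both pools were not called. Ltb, the membrane anchor of lymphotoxin, was at 10.8 CPM per kb in the knockout and 7.66 in the wild-type pool (log2 ratio 0.50), and Tnfsf8, the ligand of Tnfrsf8, at 3.53 against 2.36 CPM per kb (0.58). Tnfsf11, the RANK ligand of bone and lymph node development, had 328 against 283 counts, at 0.23 (0.00018 to 0.47). Tnfsf13, or APRIL, a survival factor of plasma cells, had 98 against 54 counts, at 0.87. In the annotation used here 60.0% of its exon length is shared with 1 of 2 overlapping genes, strand not considered. Its counts are therefore uncertain. Tnfsf14, which binds Tnfrsf14 and Ltbr, had 59 against 112 counts, at -0.90, short of the 2-fold minimum.

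The other 6 ligand genes stayed under 100 combined counts and were not called. Tnfsf13b, or BAFF, the survival factor of B cells, had 55 knockout counts against 12 wild-type counts. Tnfsf9, which costimulates through Tnfrsf9, had 36 against 7 counts, and shares 14.9% of its exon length with an overlapping gene. Tnfsf15, the ligand of Tnfrsf25, had 39 against 9. Their intervals of the log2 ratio were 1.30 to 3.25, 1.20 to 3.80 and 1.07 to 3.37, all above 0. With a minimum of 20 in place of 100 counts these 3 passed the call, beside 13.6% of all genes higher and 8.7% lower. Cd40lg, the helper signal of activated T cells, had 9 counts in each pool, and Tnfsf18 had 2 against 3. Cd70, the ligand of Cd27, had 0 counts in the knockout pool, which allows up to 3 counts or 0.0282 CPM, and 2 in the wild-type pool.

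NK and cytotoxic cell markers were given beside Fasl because such cells also express it. Of the 12 markers 7 had enough counts. Of these 5 were called higher and none lower, beside 11.2% and 5.36% of all genes. Prf1 stood at 2.27 and Gzmb at 2.14. The 12 markers summed to 265 CPM in the knockout and 261 CPM in the wild-type pool, mostly Gzma at -0.29. The defining marker Ncr1 had 14 against 4 counts, Klra8 0 in both pools and Klra4 0 against 3. Macrophage markers, at 376 against 138 CPM, were higher beside Tnf, Tnfsf13b, Tnfsf9 and Tnfsf15, which myeloid cells can express. The part of these cells in the ligand ratios was not tested.

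Among the death-domain receptors Fas and its relative Tnfrsf10b were lower and Tnfrsf21 was higher. Fas had 590 knockout counts against 1480 wild-type counts, or 5.54 against 13.7 CPM. Its log2 ratio was -1.30 (-1.45 to -1.17), so that the wild-type pool held 2.47 times the level of the knockout pool. Tnfrsf10b, the receptor through which Tnfsf10 kills mouse cells, had 216 against 443 counts, at -1.01 (-1.26 to -0.78); this call ended with 3 other scalings, where it lay between -0.92 and -0.95. Tnfrsf21, which signals death in neurons and limits T cell help in mice, had 2627 against 1260 counts, at 1.08 (0.98 to 1.18). Tnfrsf1a, the main receptor of Tnf on most cells, was at 11.2 against 10.6 CPM, and the interval of its log2 ratio of 0.08 (-0.04 to 0.19) held 0. Tnfrsf25, a receptor of resting T cells, had 2 knockout counts against 17 wild-type counts, with an interval of -6.22 to -0.99, and was not called.

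The most counted of the called genes were receptors that bind Traf adaptors. Summed, they reached 386 CPM in the knockout and 254 CPM in the wild-type pool. Of the 13 with enough counts 5 were higher and 1 lower, beside 11.2% and 5.36% of all genes, and 7 neither. Tnfrsf1b, the receptor of Tnf on lymphoid and myeloid cells, had 4819 knockout counts against 819 wild-type counts, or 45.3 against 7.58 CPM. Its log2 ratio of 2.58 (2.47 to 2.69) is a 5.97-fold difference, and its share of all receptor counts was 9.67% against 2.32%. Tnfrsf19, known as Troy and as a Wnt target in stem cells, had 5745 against 1604 counts, at 1.86 (1.78 to 1.94). Tnfrsf13c, the BAFF receptor of B cells, had 3366 against 966 counts, at 1.82 (1.72 to 1.93). Ltbr, the lymphotoxin beta receptor of stromal and myeloid cells, had 322 against 151 counts, at 1.11 (0.83 to 1.40). Tnfrsf11a, or RANK, the receptor of osteoclast precursors, had 76 against 36 counts, at 1.09 (0.51 to 1.71). The last 2 have few counts and their intervals reach below the 2-fold line, while those of the first 3 stay well above it. Macrophage and monocyte markers, at 376 against 138 CPM, were higher as well. The part of such cells in these receptor ratios was not tested.

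Costimulatory receptors of T cells differed in direction. Tnfrsf4, a receptor of activated and regulatory T cells, was the 1 receptor of this class called lower, with 59 knockout counts against 166 wild-type counts, at -1.46 (-1.93 to -1.03). Tnfrsf18, its neighbour with a like role, had 207 against 306 counts, at -0.54, and shares 27.2% of its exon length with an overlapping gene. Tnfrsf9 had 594 against 331 counts, at 0.86, and Cd27 18249 against 13101, at 0.50 (0.47 to 0.53). Tnfrsf14, which receives Tnfsf14 and Lta, was at 0.52, and Tnfrsf8, a marker of activated lymphocytes, at -0.31. Tnfrsf12a, the receptor of the ligand TWEAK, had 76 against 154 counts and lay just short of a call at -0.99. Just inside the limits lay Tnfrsf10b at -1.01, Tnfrsf21 at 1.08 and Tnfrsf11a at 1.09, and just outside them Tnfrsf12a and Tnfrsf23 at 0.95. Of 10 genes of regulatory or activated T cells 9 had enough counts. Of these 6 were higher and none lower, beside 11.2% and 5.36% of all genes. The 10 genes summed to 1021 against 419 CPM. Ctla4 stood at 3.44 and Lag3 at 3.06, while Foxp3 was at -0.30. The part of such cells in the receptor ratios was not tested.

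B cell receptors of the family differed in direction from each other. Against Tnfrsf13c at 1.82, Tnfrsf13b, the receptor TACI of B and plasma cells, had 2331 knockout counts against 4089 wild-type counts, at -0.79 (-0.86 to -0.72). Cd40 had 19 counts in each pool, and Tnfrsf17, the plasma cell receptor BCMA, had 0 against 1. B cell markers were scarce: they summed to 12.7 CPM in the knockout and 17.3 CPM in the wild-type pool, none was called higher, and Pax5 (-2.04) and Spib (-3.01) were lower. Of the 7 with enough counts 2 lay above 0, Cd79b at 0.98 (0.65 to 1.32) and Blk at 0.87 (0.58 to 1.17), both named after their values were seen. The defining marker Ms4a1 had 24 against 15 counts. Plasma cell markers also differed, with Irf4 and Xbp1 higher at 1.71 and 1.62 and Igj lower at -1.26. The part of B and plasma cells in the ratios of Tnfrsf13c and Tnfrsf13b was not tested.

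Beside 11.2% higher and 5.36% lower among all genes with enough counts, the decoy receptors and their relative Tnfrsf26 gave no call. Of their 5 rows 4 had enough counts. Tnfrsf23, a decoy for Tnfsf10 in mice, had 107 knockout counts against 56 wild-type counts, at 0.95, and Tnfrsf26 had 2677 against 1715, at 0.66. Tnfrsf22, the other mouse decoy for Tnfsf10, has 2 rows that may share reads and are uncertain, at -0.48 on 799 against 1133 counts and -0.26 on 522 against 636 counts. Tnfrsf11b, the soluble decoy of Tnfsf11, had 4 against 1 counts, too few for a direction (-1.32 to 7.64).

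Beside 11.2% higher and 5.36% lower among all genes with enough counts, none of the 7 Traf adaptors was called. Traf6, the ubiquitin ligase that also serves Toll-like and interleukin receptors, was the most counted of them, with 8718 knockout counts against 15323 wild-type counts. Its level was 81.9 against 142 CPM (log2 ratio -0.79, interval -0.83 to -0.75), and it gave 36.8% against 48.8% of all Traf counts. Traf3 and Traf2, which together hold back the alternative NF-kappaB pathway, were at -0.38 and -0.30, and Traf5 at -0.10. Traf4, known from epithelial and developmental roles, was at 0.23 and Traf7 at 0.02 (-0.03 to 0.07). Traf1, an NF-kappaB target in lymphocytes, had 110 against 99 counts, at 0.17 (-0.23 to 0.58).

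**Figure D4:**
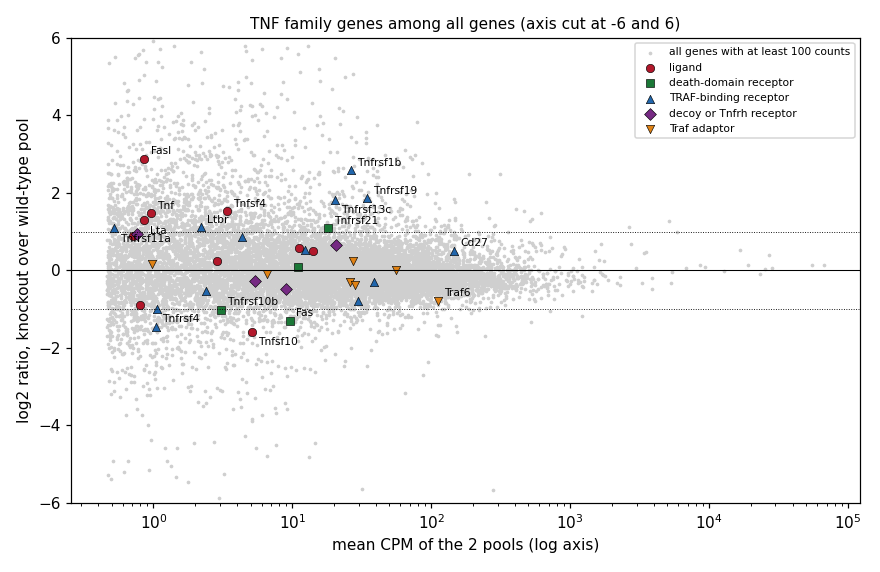
Log2 ratio of the Utx knockout over the Utx wild-type pool against the mean CPM of both pools (log axis), for all genes with at least 100 combined counts (grey) and the family by role (coloured). Dotted lines mark a 2-fold difference, and 61 genes lie beyond the axis at 6 or -6; Tnfrsf1b and Tnfrsf19 lie above the grey bulk of genes of like level, and most Traf adaptors within it.

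Ligands were set beside the receptors they are known to bind, in 27 pairs, of which 16 had enough counts on both sides. In 7 pairs both log2 ratios were above 0 and in 2 both were below. In 4 the ligand was above and the receptor below 0, and in 3 the reverse. Signs were counted also where an interval held 0, as that of Tnfrsf1a did, or barely left it out, as that of Tnfsf11 did. Of the 38 rows with enough counts 23 lay above 0, beside 6191 of all 13833 genes. The pairs share genes and are not independent. Both genes were called in 5 pairs. Fasl at 2.87 was opposite to Fas at -1.30, and Tnfsf4 at 1.52 was opposite to Tnfrsf4 at -1.46. Tnf and Lta, at 1.47 and 1.30, were both higher together with Tnfrsf1b at 2.58, while Tnfrsf1a stayed at 0.08. Tnfsf10 and its death receptor Tnfrsf10b were both lower, at -1.58 and -1.01. That pair was no longer called with 3 other scalings, under which Tnfsf10 and its decoy receptor Tnfrsf23 were called in opposite directions, and with a pseudocount of 5, which left 4 pairs. Among pairs that lack a call on 1 side, Ltb was at 0.50 beside Ltbr at 1.11.

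**Figure D5:**
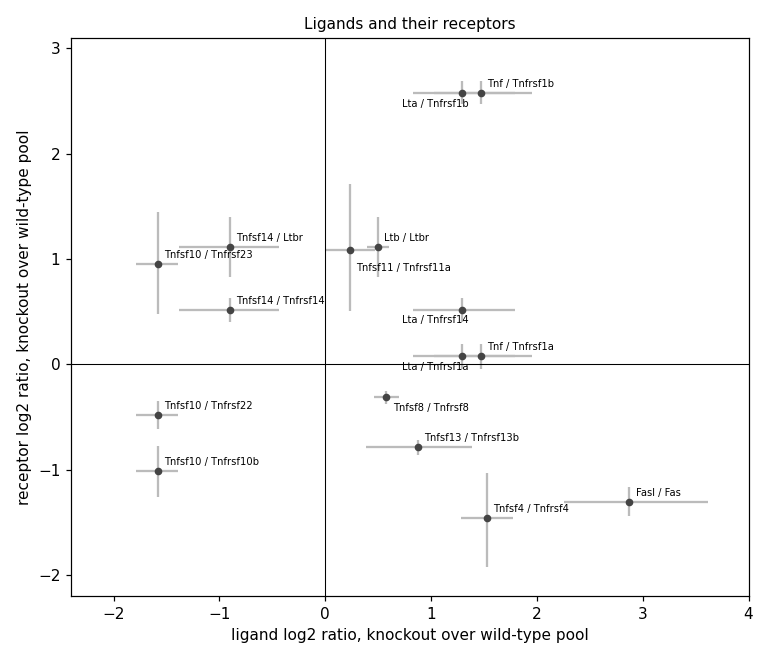
Log2 ratio (Utx knockout over Utx wild-type pool) of each receptor against that of a ligand it binds, for the 16 pairs with at least 100 combined counts for both genes; bars are exact 95% intervals for counting error. Fasl with Fas and Tnfsf4 with Tnfrsf4 lie at the lower right, ligand higher and receptor lower, and Tnf with Tnfrsf1b at the upper right.

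Many of these genes lie side by side in the genome. With a limit of 500 kb between neighbours, 21 of the 47 rows with coordinates fell into 8 clusters. Some neighbours shared a call and others did not. On chromosome 17 (35194439 to 35205351, GRCm38) Ltb, Tnf and Lta lie within 10.9 kb, and all 3 were above 0, at 0.50, 1.47 and 1.30. On chromosome 1 (161395409 to 161788495) Tnfsf4 and Fasl were both higher, with Tnfsf18 at 2 against 3 counts between them. Tnfrsf1b at 2.58 and Tnfrsf8 at -0.31 are neighbours on chromosome 4 (145213463 to 145315164). On the same chromosome (156013843 to 156028895) Tnfrsf4 and Tnfrsf18 were at -1.46 and -0.54. Cd27, Ltbr and Tnfrsf1a, on chromosome 6 (125232622 to 125362484), were at 0.50, 1.11 and 0.08. On chromosome 7 (143607659 to 143685872) the ratios of Tnfrsf26, Tnfrsf22 and Tnfrsf23 were 0.66, -0.48 and 0.95.

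Of 72 other genes of the pathway 70 had enough counts, and 4 were called higher (5.71%), 1 lower (1.43%) and 65 neither, beside 11.2% and 5.36% of all genes. Their median log2 ratio was 0.01. Among adaptors and kinases close to the receptor, and receptors of the family with other names, 2 of 25 were higher and 1 lower. Edar, the receptor of hair and tooth buds, had 220 knockout counts against 10 wild-type counts, at 4.41, and Map3k5, a stress kinase upstream of JNK and p38, was at 1.01. Ngfr, the nerve growth factor receptor, had 38 against 415 counts, at -3.41. Traf3ip2 was at -0.64.

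Ubiquitin enzymes and brakes of the pathway had 1 higher gene of 15, Tnip3, on 681 knockout counts against 95 wild-type counts, at 2.86. Its relative Tnip1 was at -0.51 and the brake Tnfaip3 at 0.51. None of the 14 caspases and death regulators was called; they ran from Tnfaip8l2 at 0.86 and Casp6 at 0.68 to Birc2 at -0.48 and Tnfaip8l1 at -0.85. Of 12 IKK and NF-kappaB genes Bcl3 was higher at 2.13, and Nfkb2, the subunit of the alternative pathway, was at 0.82. The inhibitor Nfkbia and the kinase Ikbkb were at -0.43 and -0.42. No gene of ligand shedding was called, and 4 of 6 had enough counts. Adam10 was at 0.13, Adam17, the enzyme that sheds Tnf, at -0.21 and Furin at -0.56. Beside each of these lists, 11.2% of all genes with enough counts were higher and 5.36% lower.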

How the data were processed

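Leukaemia RNA was made into libraries that keep the strand and read from 1 end for 50 bases, per the labels' protocols. The submitters' processing notes name CASAVA, TopHat and the mm9 build. RNA was selected by poly-A or by removal of ribosomal RNA, per the series' design text, which does not say which samples had which. The sources used here do not name the annotation, the counter or its strand setting. The values were 2 columns of raw read counts that the authors pooled by genotype in their deposited DEGseq table; columns with per-sample values numbered 0. Pools were assigned by the order of genotypes in the table's title. The log2 fold changes, z score, p-values and q-values in that deposited table are the authors' DEGseq output for these pools.

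CPM, log2 ratios (pseudocount 0.5 counts) and exact 95% Clopper-Pearson intervals were computed with Python 3.11.15 and scipy 1.17.1, and scaling factors for the alternatives with edgeR 4.0.16. No test across samples was possible with 1 pooled value per genotype. The code was tested on simulated counts. Genes are ranked by level only as CPM per kb of exon length of GENCODE M21 (GRCm38), whose coordinates are used throughout. Counts, summed CPM, shares of counts and the CPM axes of figures are not scaled by length. Upstream sequences are from RefSeq (GRCm38.p6). Members and lists were chosen with earlier results of these data known. Every member could be named; of the pathway lists, called genes and up to the 2 highest and 2 lowest with at least 100 counts; of the marker lists, called genes and defining markers.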

Additional observations from a re-analysis of the deposited data

How the results depend on the processing

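The sign of the log2 ratio held for each of the 38 genes with at least 100 counts under the other scalings and pseudocount. The scalings were upper quartile, median of ratios, TMM and a depth without mitochondrial and erythroid genes, and the pseudocount was 5. The intervals of Tnfrsf1a, Traf1, Traf5 and Traf7 held 0, so their sign gives no direction. That of Tnfsf11 began at 0.00018 and barely left out 0. The call of Tnfrsf10b ended with TMM, median of ratios and that depth, at -0.92 to -0.95, and with the pseudocount; Tnfrsf23 passed the call in the first 3 of these, at 1.02 to 1.04. The count of 10 higher moved by over 1.5 times with at least 500 counts and with a 3-fold minimum. The count of 4 lower did so with a 1.5-fold and with a 3-fold minimum. With the other minimums these counts moved less. With at least 500 combined counts, 5 of 27 were called higher and 3 lower, against 7.56% and 3.35% of all genes. A 3-fold minimum left 4 higher and 0 lower, against 5.94% and 2.22%; at 1.5-fold, 14 were higher and 8 lower, against 18.9% and 14.7%. With at least 20 counts, 13 of 42 were higher and 4 lower, against 13.6% and 8.7%. The median log2 ratio of the family was 0.23, but 0.37 with at least 20 counts and 0.08 with at least 500. Scaling moved all log2 ratios together by at most 0.09, so that only genes nearer to 0 than this could change sign by it. No paired analysis was possible because the deposited columns are pooled over the samples of a genotype; for the same reason no sample could be left out. Intervals cover counting error only, and genes near 100 combined counts are the least precise.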
